A study of Mus musculus with 2 samples.

Results

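The NKG2 receptors of natural killer (NK) cells and cytotoxic T cells and the ligands they read were followed in MC38 tumors left untreated or injected with MSA-2. The 7 genes were chosen by symbol among the 32285 features counted: 3 receptor genes, Klrk1 (NKG2D), Klrc1 (NKG2A) and Klrd1 (CD94), and 4 ligand genes, H2-T23 (Qa-1), Ulbp1 (MULT1), Raet1e (a member of the RAE-1 family) and H60b. Receptors were described in NK and T cells, and ligands in tumor and myeloid cells.

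MC38 is a mouse colon adenocarcinoma line, grown here under the skin of mice, and MSA-2 is a non-nucleotide small molecule that activates STING, a sensor of cyclic dinucleotides. Tumors received 3 intratumoral doses, 1 every 3 days with the last on day 6, and were collected on day 7. The control is called untreated in the sample labels, while the study design describes vehicle injections (saline with DMSO). The labels give neither strain nor age, and the methods describe C57BL/6 mice of 6 to 8 weeks as hosts of MC38 tumors. The tumors of 3 mice were pooled into 1 library per condition, so the difference between conditions has no replicate check. Every interval below covers counting error only, at the 95% level, and no p-value is given for any gene.

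NKG2D is an activating receptor that binds stress-induced relatives of MHC class I, among them MULT1, the RAE-1 proteins and the H60 proteins, and signals through the adapters DAP10 (Hcst) and DAP12 (Tyrobp). NKG2A forms a heterodimer with CD94 and inhibits the cell when it binds Qa-1, the mouse counterpart of human HLA-E, which presents peptides cut from the leader sequences of other class I proteins. NKG2D is carried by NK cells and by activated CD8 T cells, and NKG2A by part of the NK cells and by CD8 T cells after prolonged stimulation.

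After filtering and removal of predicted doublets, 13334 untreated and 13393 MSA-2 cells remained, with totals of 183355500 and 191888910 UMIs (unique molecular identifiers, 1 per captured transcript) and medians of 8298.5 and 9271 UMIs a cell. The libraries shared 53 cell barcodes, of which 39 passed the filters in both. Clusters were named from marker lists, and a name ending in "-like" rests on those lists. Cells labelled tumor cells by the submitters were a mixture: epithelial-like cells, the class with the tumor cells, made up 49.3% and 52.5%, myeloid-like cells 31.4% and 14.3%, and NK/T-like cells 11.4% and 2.25%. The epithelial-like name rested on Gng11, Ccn1 and Anxa1, summed at 3003 and 3560 CPM (counts per 1e6 UMIs of the class). The same 3 genes were at 1795 and 1808 CPM in fibroblast-like and 2079 and 2326 CPM in endothelial-like cells. They were thus not particular to this class, which is called tumor cells below. Summed, Krt8, Krt18, Krt7, Krt19 and Epcam were near 0 (0.979 and 0.454 CPM), while Krt14 was among the leading genes of cluster 14 of this class. Neutrophil-like cells, with S100a8, S100a9 and Csf3r among their markers, numbered 45 in the untreated library and 2645 after MSA-2. Their marker list, summed as the monocyte-marker list, was also higher in other classes of the MSA-2 library, in epithelial-like cells for example at 7.42 and 499.8 CPM. Its levels are given below for several of the classes, and its part in the differences was not tested.

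The receptor genes lie together in the NK gene complex. In GRCm38 (mm10), with GENCODE M21 annotation, Klrd1 (ENSMUSG00000030165) is at chr6:129591782-129598775 on the plus strand, Klrk1 (ENSMUSG00000030149) at chr6:129610323-129623864 and Klrc1 (ENSMUSG00000030167) at chr6:129666015-129678973, both on the minus strand. H2-T23 (ENSMUSG00000067212) is at chr17:36029773-36032855 on the minus strand, where the antisense gene A930015D03Rik overlaps it. Ulbp1 (ENSMUSG00000079685) is at chr10:7440362-7473638 on the minus strand. Raet1e (ENSMUSG00000053219, chr10:22158569-22374139, plus strand) spans 215.571 kb and shares exon bases with H60b (ENSMUSG00000075297, chr10:22158586-22288849) and with Raet1d (chr10:22360552-22374139), both on its strand. It also contains the antisense gene Gm26740 (chr10:22187013-22302835), with which it shares no exon bases. Reads from this locus can therefore be split between Raet1e, H60b and Raet1d, and the values of these genes are uncertain in that respect.

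Promoter sequences from RefSeq (GRCm38.p6; 250 bases before and 50 after an annotated start) matched 5 of the 7 genes, with 2 starts for Raet1e. They were searched on both strands for words of factors that act on these genes in lymphocytes or after interferon: GAAANNGAAA (interferon-stimulated response element), TTCNNNGAA (STAT site), GGTGTGA (T-box), TGTGGT (Runx), and TTTCCCGC and TTTGGCGC (E2F). The Klrk1 and Klrc1 stretches are shown because both receptor genes were lower in the same cells after MSA-2, and each holds the Runx word, in capitals, in Klrc1 on the opposite strand. For H2-T23, 30 bases around the one interferon word found, also on the opposite strand, are shown. GENCODE places the start of H2-T23 154 bases further upstream than RefSeq, so these 30 bases lie inside the GENCODE gene.

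Klrk1, chr6:129623865-129624114, minus strand: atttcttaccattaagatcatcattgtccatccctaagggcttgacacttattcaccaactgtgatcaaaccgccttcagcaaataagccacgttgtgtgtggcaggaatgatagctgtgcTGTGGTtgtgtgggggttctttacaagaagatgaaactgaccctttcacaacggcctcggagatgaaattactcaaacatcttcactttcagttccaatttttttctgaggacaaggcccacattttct

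Klrc1, chr6:129678974-129679223, minus strand: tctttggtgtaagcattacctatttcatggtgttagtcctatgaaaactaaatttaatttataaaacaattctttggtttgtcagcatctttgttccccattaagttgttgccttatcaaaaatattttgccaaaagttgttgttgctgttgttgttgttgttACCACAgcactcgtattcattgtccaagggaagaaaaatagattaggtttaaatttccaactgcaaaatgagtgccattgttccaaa

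H2-T23, chr17:36032806-36032835, minus strand: atcctactgcTTTCTCTTTCataaagacac

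The Runx word lies 129 to 124 bases before the Klrk1 start and 87 to 82 bases before the Klrc1 start, and was present in 16.8% of the 32851 promoters of that length. The interferon word lies 124 to 115 bases before the RefSeq start of H2-T23 and was present in 3.44% of promoters. The STAT word was in 8.30%, the T-box word in 3.98% and the E2F words in 1.07% and 0.514%, and none of these letters occurred in the windows of the members. In the Ulbp1 promoter the Runx word lies 40 to 45 bases after the start, and neither Raet1e window held any of the words. No overlap between words occurred in a member's window.

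Over the whole library, Klrk1 had 3170 UMIs (17.3 CPM) untreated and 697 (3.63 CPM) after MSA-2, a log2 ratio of -2.25 [-2.37, -2.13]. Klrd1 went from 2707 UMIs (14.8 CPM) to 755 (3.93 CPM), and Klrc1 from 1233 (6.72 CPM) to 176 (0.917 CPM). All 3 receptor genes were thus lower relative to all UMIs of the MSA-2 library, in which NK/T-like cells were also fewer. Among the ligands, H2-T23 went from 4946 UMIs (27.0 CPM) to 3233 (16.8 CPM), whereas Ulbp1 (5428 and 5717 UMIs, 29.6 and 29.8 CPM) and Raet1e (6574 and 7310 UMIs, 35.9 and 38.1 CPM) were nearly level. H60b was close to absent, with 6 and 4 UMIs.

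The receptor UMIs lay mostly in NK/T-like cells, for Klrk1 also in myeloid-like cells, and most Ulbp1 and Raet1e UMIs in epithelial-like cells. NK/T-like cells held 56.2% of the untreated Klrk1 UMIs and 51.9% of those after MSA-2, with a further 34.4% and 32.1% in myeloid-like cells. Klrc1 was more tightly placed in NK/T-like cells (87.5% and 75.6%), and so was Klrd1 (78.4% and 80.8%). Epithelial-like cells held 90.4% and 94.3% of the Ulbp1 UMIs and 82.4% and 89.5% of those of Raet1e, where the class held 80.8% and 85.0% of all UMIs of the libraries, so that the Raet1e shares were near that of any UMI. H2-T23 was shared among classes, and its placing moved with the make-up of the library: myeloid-like cells held 53.7% of its UMIs untreated and 24.7% after MSA-2, fibroblast-like cells 2.99% and 23.6%, and epithelial-like cells 30.4% and 34.4%.

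**Figure D1:**
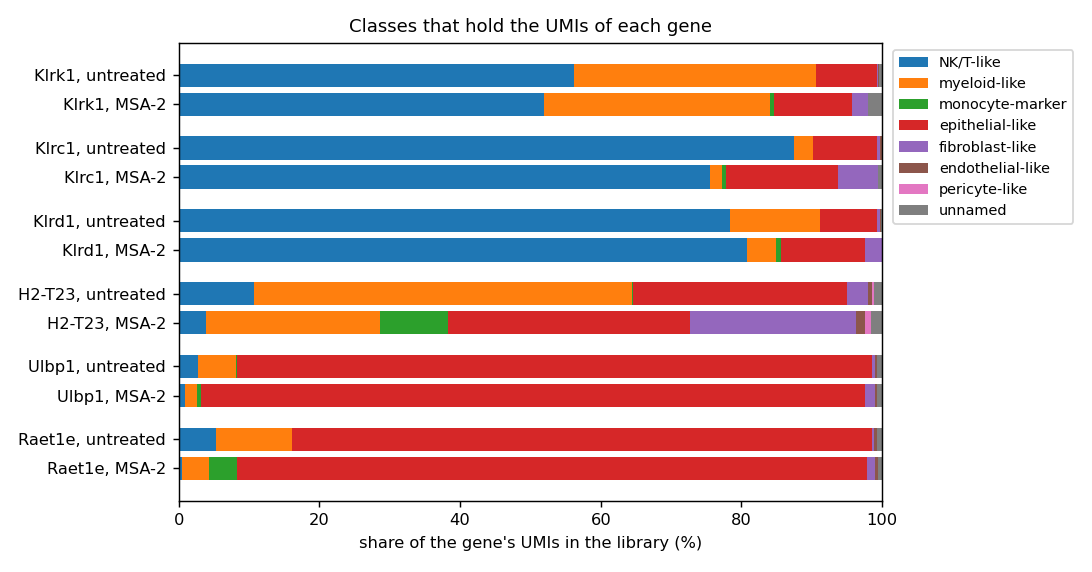
Share of each gene's UMIs (percent, x axis) by cell class, with 1 bar for each gene and library. H60b, with 6 and 4 UMIs, is not drawn. The receptor bars are filled mostly by NK/T-like cells, for Klrk1 also by myeloid-like cells, and the Ulbp1 and Raet1e bars by epithelial-like cells.

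In NK-like cells the activating receptor gene Klrk1 and the inhibitory receptor gene Klrc1 were both lower after MSA-2, and their levels fell short of a 2-fold difference. The class held 258 untreated and 125 MSA-2 cells, with medians of 5077.5 and 6075 UMIs. Klrk1 had 676 UMIs, 471 CPM [436, 508], untreated and 246 UMIs, 271 CPM [238, 307], after MSA-2, a log2 ratio of -0.80 [-1.02, -0.59]. Klrc1 had 176 UMIs, 123 CPM [105, 142], and 57 UMIs, 62.8 CPM [47.5, 81.3], a log2 ratio of -0.97 [-1.42, -0.53]. Klrd1, whose product pairs with NKG2A, was closest to level, with 817 UMIs, 570 CPM [531, 610], and 429 UMIs, 472 CPM [429, 519], a log2 ratio of -0.27 [-0.44, -0.10]. The intervals of Klrk1, Klrc1 and Klrd1 do not overlap between libraries, and the share of all genes for which this holds was not counted. All 3 ratios were below 0, as were 58.0% of all genes. No receptor gene was at least 2-fold lower or higher, where 7.51% and 5.93% of the 8278 genes with at least 20 UMIs in these cells were.

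The lower Klrk1 level was found in both groups of NK-like cells, and the lower Klrc1 level in the larger one. In the larger one, led by Gzmc and Gzma (218 and 96 cells), Klrk1 went from 486 to 278 CPM, Klrc1 from 126 to 51.2 CPM and Klrd1 from 585 to 492 CPM. In the cycling one (40 and 29 cells), Klrk1 went from 428 to 258 CPM, a log2 ratio of -0.73 [-1.13, -0.34]. There Klrc1 had 41 and 27 UMIs (113 and 83.8 CPM, -0.43 [-1.19, 0.30]) and Klrd1 524 and 438 CPM (-0.26 [-0.59, 0.06]). The intervals of Klrc1 and Klrd1 thus included 0. With every cell thinned to 1500 UMIs, a Klrk1 UMI was found in 119 of 250 cells of the untreated library (47.6%) and in 41 of 121 after MSA-2 (33.9%), a Klrc1 UMI in 16.0% and 10.7%, and a Klrd1 UMI in 55.2% and 49.6%. Unthinned, the shares were 86.0% and 77.6%, 35.3% and 27.2%, and 84.5% and 89.6%. In epithelial-like cells, which should lack these receptors, the thinned shares were at most 0.244%. Those cells were deeper, with medians of 20294 and 19992.5 UMIs, so thinning removes more of their free RNA and this share understates it. Unthinned, 6576 and 7028 epithelial-like cells held 276 and 77 Klrk1 UMIs, while 258 and 125 NK-like cells held 676 and 246.

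The NK-like cells of the MSA-2 library also carried more RNA of other cells' marker genes. Their summed monocyte-marker list (S100a8, S100a9, Csf3r and 6 others) was 16.7 CPM untreated and 1653 CPM after MSA-2, with 0 of the 9 genes lower, and the mast-like list was 44.6 and 579 CPM. The myeloid-like list went from 594 to 271 CPM and the NK/T-like list itself from 2802 to 2267 CPM, while the NK-like list went from 2935 to 6969 CPM (log2 ratio 1.25), with 5 of its 8 genes lower. Only 17 of the 125 MSA-2 cells were without a UMI of the monocyte-marker list, against 248 of 258 untreated cells, and their median depth was 3849 UMIs. In those cells the log2 ratios were 0.06 [-0.48, 0.56] for Klrk1, 0.05 [-1.10, 1.012] for Klrc1 and 0.47 [0.04, 0.87] for Klrd1, so the lower receptor levels were not seen there. The part of this RNA in the NK-like result was not tested.

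CD8 T-like cells were the other main source of receptor RNA, and again Klrk1 and Klrc1 were lower after MSA-2 while Klrd1 differed little. The class went from 720 cells (5.40% of the library) to 83 (0.620%), with medians of 3348.5 and 3277 UMIs. Klrk1 had 831 UMIs, 328 CPM [306, 351], untreated and 51 UMIs, 171 CPM [128, 225], after MSA-2, a log2 ratio of -0.94 [-1.37, -0.53]. Klrc1 had 705 UMIs, 278 CPM [258, 299], and 38 UMIs, 128 CPM [90.4, 175], a log2 ratio of -1.12 [-1.63, -0.65]. Klrd1 had 991 UMIs, 391 CPM [367, 416], and 94 UMIs, 316 CPM [255, 387], a log2 ratio of -0.31 [-0.63, -0.00]. Klrc1 was the one receptor gene at least 2-fold lower, in a class where 14.7% of 8811 genes were 2-fold lower and 6.51% 2-fold higher. Untreated CD8 T-like cells had a higher Klrc1 level than untreated NK-like cells (278 against 123 CPM), whereas Klrk1 and Klrd1 were higher in NK-like cells.

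**Figure D2:**
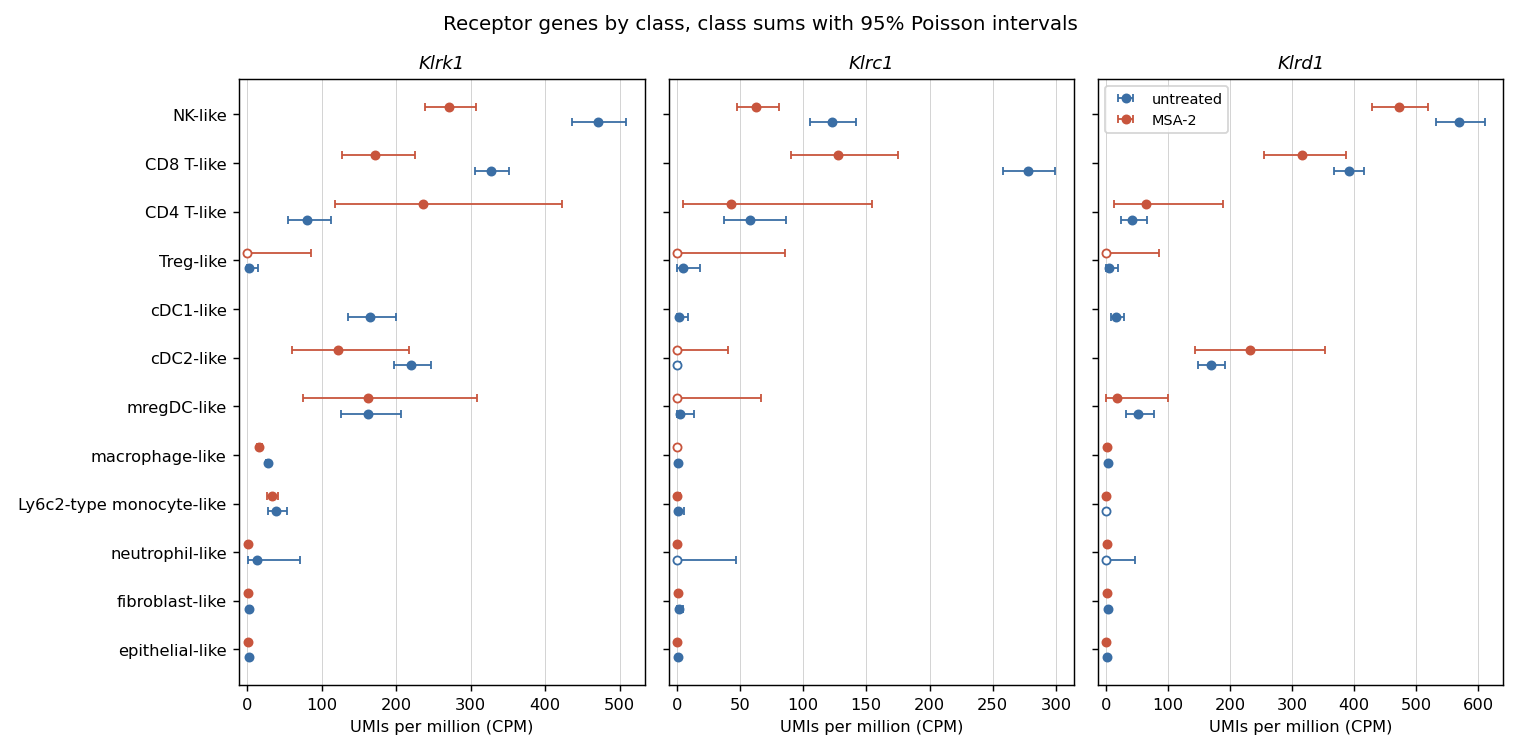
Klrk1, Klrc1 and Klrd1 levels (CPM of summed UMIs, x axis) by cell class in the untreated and MSA-2 libraries, with exact Poisson 95% intervals; open circles mark classes with 0 UMIs, and classes under 10 cells in a library and NK/T-like cells without a sub-class are not drawn. In the untreated library NK-like and CD8 T-like cells stand highest among the classes drawn for all 3 genes, and cDC2-like cells reach 220 CPM of Klrk1. CD4 T-like cells after MSA-2 stand at 236 CPM of Klrk1 with a wide interval, and epithelial-like cells stay below 2 CPM.

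Within the CD8 T-like cells, receptor levels followed the sub-clusters. The largest one (450 and 58 cells), with Tox among its leading genes and a summed level of 1303 CPM for the checkpoint genes Pdcd1, Havcr2, Lag3, Tox, Entpd1 and Tigit, had 359 CPM of Klrk1, 296 of Klrc1 and 464 of Klrd1 untreated, and 184, 146 and 356 CPM after MSA-2. A sub-cluster with 231 CPM of Gzmk (228 and 22 cells) had 233, 200.5 and 164.5 CPM untreated, and 103 CPM of Klrk1 (5 UMIs), 61.8 of Klrc1 (3 UMIs) and 206 of Klrd1 after MSA-2. A small one led by Ccl1 and Penk (42 and 3 cells) had 330, 345 and 411 CPM untreated. Over the NK/T-like sub-clusters with UMIs in both libraries, Klrk1 was lower after MSA-2 in 7 of 8, Klrc1 in 8 of 8 and Klrd1 in 5 of 8.

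Thinned to 1500 UMIs, a Klrk1 UMI was found in 34.8% of untreated CD8 T-like cells and in 15 of 73 after MSA-2 (20.5%). The share went from 32.1% to 15.1% for Klrc1 and from 36.6% to 32.9% for Klrd1. Unthinned, the shares were 55.4% and 38.6%, 54.6% and 32.5%, and 57.8% and 54.2%. Of the 720 untreated cells, 251 (34.9%) had a UMI of both Klrk1 and Klrc1, and Klrc1 was found in 62.9% of the cells with a Klrk1 UMI and in 44.2% of the others. Cells with more UMIs show more of every gene, and after thinning the shares were 36.9% and 29.5%. For the partners Klrc1 and Klrd1, the unthinned shares with Klrd1 were 66.9% of cells with a Klrc1 UMI and 46.8% of the others, and the thinned shares 37.4% and 36.2%.

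The monocyte-marker list in CD8 T-like cells was 39.4 CPM untreated and 386 CPM after MSA-2, the myeloid-like list 665 and 131 CPM, and the NK/T-like list 6089 and 4013 CPM. In the 657 untreated and 24 MSA-2 cells without a monocyte-marker UMI (medians of 3223 and 2361.5 UMIs), the log2 ratios were -0.68 [-1.60, 0.10] for Klrk1, -0.46 [-1.38, 0.32] for Klrc1 and -0.45 [-1.21, 0.22] for Klrd1. All 3 values were below 0 and all 3 intervals included 0, on 13, 13 and 18 MSA-2 UMIs.

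CD4 T-like and Treg-like cells carried less receptor RNA than CD8 T-like cells in the untreated library. In CD4 T-like cells (187 and 25 cells), Klrk1 had 33 UMIs (79.7 CPM) untreated and 11 UMIs (236 CPM) after MSA-2, a log2 ratio of 1.56 [0.43, 2.58]. Of the named classes with Klrk1 UMIs in both libraries, this was the one with a higher level after MSA-2. In 4 of the 7 settings that clustered the cells again the value was between -1.73 and -0.13, on 1 or 2 MSA-2 UMIs. In the others it was 0.78 [-0.94, 2.16] without a cell filter, 0.72 [-0.63, 1.90] without integration and 1.07 [-0.37, 2.28] with interferon-stimulated genes among the variable genes. The interval included 0 in each of the 7 settings. The NK-like marker list was 53.2 and 214 CPM, the gamma-delta T-like list 457 and 836 CPM and the monocyte-marker list 65.2 and 343 CPM in the same cells. At a finer resolution a gamma-delta T-like cluster separated, with 9 Klrk1 UMIs in 15 untreated cells (245 CPM) and 0 in 3 MSA-2 cells. Klrc1 had 24 and 2 UMIs in CD4 T-like cells and Klrd1 17 and 3. Treg-like cells (161 and 17 cells) had at most 2 UMIs of any receptor gene untreated and 0 after MSA-2. A cycling NK/T-like sub-cluster without a sub-class name (118 and 37 cells) had 209 and 161 CPM of Klrk1, 144 and 113 CPM of Klrc1, and 245.5 and 213 CPM of Klrd1. In a second unnamed one, led by Satb1 and Sidt1 (80 and 14 cells), Klrk1 had 52 and 4 UMIs (192 and 109 CPM) and Klrc1 42 and 1, whereas Klrd1 was higher after MSA-2, at 72 UMIs (265 CPM) and 18 UMIs (490 CPM), a log2 ratio of 0.88 [0.05, 1.64].

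Dendritic cells other than pDC-like cells carried Klrk1 and Klrd1. No sub-class of dendritic cells had more than 1 UMI of Klrc1. In cDC2-like cells (228 and 31 cells), Klrk1 had 307 UMIs (220 CPM) untreated and 11 UMIs (121 CPM) after MSA-2, a log2 ratio of -0.86 [-1.88, -0.00], and Klrd1 236 UMIs (169 CPM) and 21 UMIs (231 CPM), a log2 ratio of 0.45 [-0.27, 1.10]. Klrc1 had 0 UMIs in cDC2-like cells of either library. A UMI of both Klrk1 and Klrd1 was found in 67 of the 228 untreated cells (29.4%), and after thinning a Klrk1 UMI in 24.8% and a Klrd1 UMI in 22.97%. The NK/T-like list was at 25.8 CPM in these untreated cells and at 0 after MSA-2, and the monocyte-marker list at 752 and 1256 CPM, and their part in these values was not tested. cDC1-like cells (62 and 2 cells) had 105 Klrk1 UMIs (165 CPM) untreated, and mregDC-like cells, mature dendritic cells with Ccr7 and Ccl22 (76 and 14 cells), had 163 and 162 CPM of Klrk1 and 51.0 CPM of Klrd1 untreated, with 1 Klrd1 UMI after MSA-2. pDC-like cells (17 and 2 cells) had 9 Klrd1 UMIs (132 CPM) untreated and 0 Klrk1 UMIs in either library.

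Other myeloid cells had lower levels. Macrophage-like cells (3293 and 985 cells) had 527 Klrk1 UMIs (27.2 CPM) untreated and 81 (15.7 CPM) after MSA-2, a log2 ratio of -0.80 [-1.15, -0.46], and 2.58 and 1.16 CPM of Klrd1. Ly6c2-type monocyte-like cells (233 and 568 cells) had 39.1 and 32.9 CPM of Klrk1. Neutrophil-like cells after MSA-2 had 4 Klrk1 UMIs (0.788 CPM). Over all myeloid-like cells, Klrk1 went from 44.1 to 24.8 CPM (log2 ratio -0.83) and Klrd1 from 14.02 to 3.43 CPM (-2.03), while Klrc1 went from 33 to 3 UMIs. Klrc1 and Klrd1 were at least 2-fold lower there, against 8.78% of 13849 genes lower and 9.45% higher. Dendritic cells were fewer and the NK/T-like list was also lower in these cells after MSA-2 (37.9 and 5.76 CPM), and the monocyte-marker list was higher (195 and 2124 CPM). The part of these in the result was not tested.

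In epithelial-like cells the receptor genes were at trace levels, lower after MSA-2, as were the NK/T-like and myeloid-like lists in the same cells, whose part in the result was not tested. Klrk1 had 276 UMIs (1.86 CPM) untreated and 77 (0.472 CPM) after MSA-2, a log2 ratio of -1.98, Klrc1 0.756 and 0.172 CPM (-2.14) and Klrd1 1.49 and 0.558 CPM (-1.42). The NK/T-like list in the same cells was 22.8 and 5.996 CPM, a log2 ratio of -1.93, with 9 of 10 genes lower, and the myeloid-like list was 464 and 121 CPM (-1.94), while the monocyte-marker list was 7.42 and 499.8 CPM (6.07). Klrk1 was found in 3.80% and 1.08% of unthinned epithelial-like cells, and these shares give the background against which the shares in lymphocytes stand. All 3 receptor genes were 2-fold lower, where 6.2% of 18196 genes were lower and 11.1% higher.

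H2-T23, which encodes the heavy chain of Qa-1, was lower after MSA-2 both in tumor cells and in myeloid cells, by less than 2-fold. In epithelial-like cells it had 1505 UMIs, 10.2 CPM [9.65, 10.7], untreated and 1113 UMIs, 6.82 CPM [6.43, 7.24], after MSA-2, a log2 ratio of -0.57 [-0.69, -0.46]. In myeloid-like cells, where its level was far higher, it had 2655 UMIs (107.6 CPM) and 799 UMIs (88.5 CPM), a log2 ratio of -0.28 [-0.40, -0.17]. The intervals exclude 0 in both classes, and in both the monocyte-marker list was higher after MSA-2 (7.42 and 499.8 CPM in epithelial-like, 195 and 2124 CPM in myeloid-like cells). In epithelial-like cells the myeloid-like list was also lower (464 and 121 CPM), as was the NK/T-like list (22.8 and 5.996 CPM), and the part of these in the result was not tested. Thinned shares went from 1.603% to 1.198% of epithelial-like and from 14.8% to 11.6% of myeloid-like cells, with unthinned shares of 19.2% and 13.8% of epithelial-like and 43.5% and 31.2% of myeloid-like cells.

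The epithelial-like cells fell into 9 clusters, and the libraries filled them unequally: cluster 1 held 2024 untreated and 563 MSA-2 cells, while cluster 7 held 82 and 1368 and cluster 9 held 70 and 1144. H2-T23 was lower after MSA-2 in 8 of the 9, with log2 ratios from -1.09 to 0.09. It went from 14.9 to 9.36 CPM in cluster 1, from 10.8 to 5.08 in cluster 7, from 8.19 to 4.88 in cluster 8 and from 13.3 to 6.60 in cluster 14. Cluster 5 was the exception, with 7.46 and 7.94 CPM. Untreated cluster levels weighted by the cluster mix of the MSA-2 library gave 9.66 CPM, close to the untreated 10.2 CPM. In the epithelial-like cells without any UMI of the myeloid-like or NK/T-like lists, 60 untreated and 963 MSA-2 cells with medians of 3480 and 10616 UMIs, the log2 ratio was -2.29, so the difference was larger there and rests on few untreated cells.

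**Figure D3:**
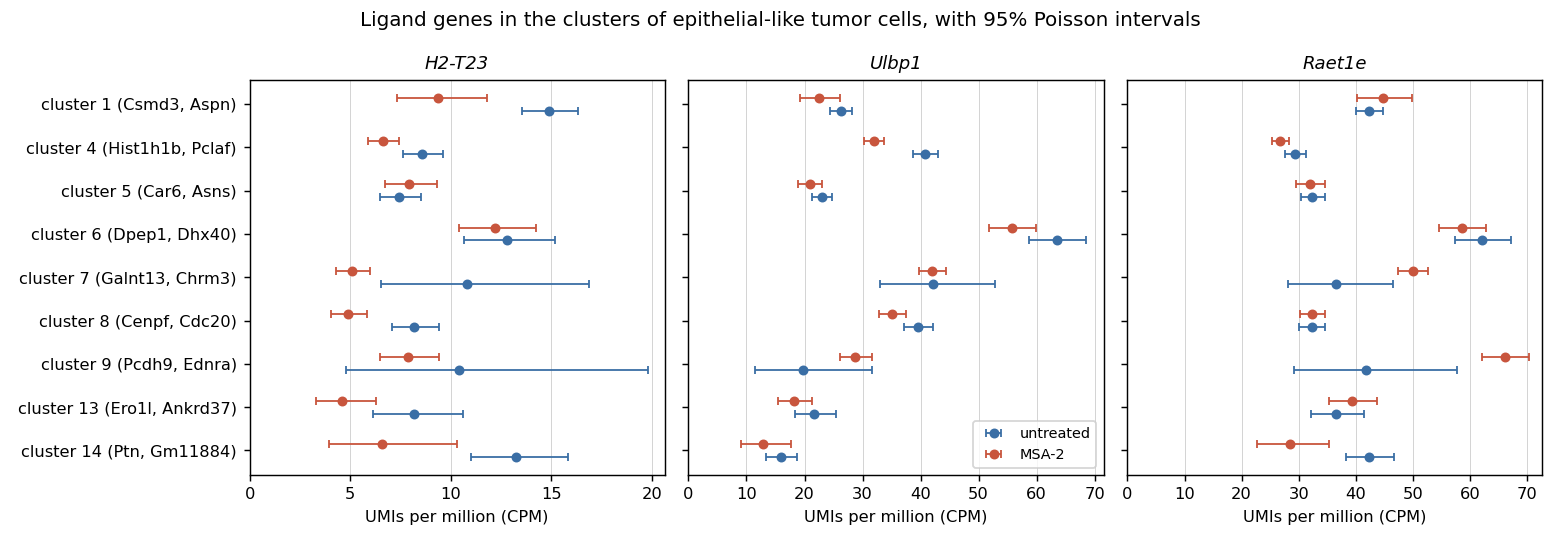
H2-T23, Ulbp1 and Raet1e levels (CPM of summed UMIs, x axis) in each of the 9 epithelial-like clusters in the untreated and MSA-2 libraries, with exact Poisson 95% intervals. H2-T23 is lower after MSA-2 in 8 clusters, Ulbp1 in 8 by small amounts, and Raet1e in 4. For Ulbp1 the interval of the ratio excludes 0 only in clusters 4, 6 and 8.

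Among myeloid cells, H2-T23 stood at 109 and 96.0 CPM in macrophage-like cells, a log2 ratio of -0.18 [-0.32, -0.04], and at 111 and 74.0 CPM in Ly6c2-type monocyte-like cells (-0.58 [-0.94, -0.22]). Neutrophil-like cells after MSA-2 had 315 UMIs (62.0 CPM). Dendritic cells were at 116 CPM untreated in cDC1-like cells, 106 and 55.1 CPM (5 UMIs) in cDC2-like cells, 129 and 72.2 CPM in mregDC-like cells, and 235 CPM untreated in pDC-like cells. Lymphocytes carried the Qa-1 gene at a like level: 79.5 and 57.3 CPM in NK-like cells (log2 ratio -0.47 [-0.97, 0.01]), 88.3 and 87.4 CPM in CD8 T-like cells, 79.7 and 107 CPM in CD4 T-like cells, and 131 and 186 CPM in Treg-like cells. In the stroma every interval of the ratio included 0. Fibroblast-like cells had 60.5 and 70.9 CPM (0.23 [-0.03, 0.49]), endothelial-like cells 51.3 and 43.1 CPM (-0.25 [-0.94, 0.46]) and pericyte-like cells 66.8 and 122 CPM (0.87 [-0.18, 1.997]). The monocyte-marker list was 40.1 and 845 CPM in fibroblast-like and 8.01 and 1372 CPM in endothelial-like cells. It was 149.9 and 1504 CPM in macrophage-like and 363 and 3282.5 CPM in Ly6c2-type monocyte-like cells. The myeloid-like list was 23811 and 15985 CPM in macrophage-like and 13001 and 5167 CPM in Ly6c2-type monocyte-like cells. The part of these in the H2-T23 values was not tested.

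Ulbp1, which encodes the NKG2D ligand MULT1, had most of its UMIs in epithelial-like cells, at a like level in both libraries when the class was taken whole. In epithelial-like cells it had 4906 UMIs (33.1 CPM) untreated and 5391 UMIs (33.1 CPM) after MSA-2, a log2 ratio of -0.00 [-0.06, 0.05]. The level nevertheless differed among tumor clusters, from 19.7 CPM in cluster 9 and 15.9 CPM in cluster 14 to 63.5 CPM in cluster 6 of the untreated library. Within clusters it was lower after MSA-2 in 8 of 9, with log2 ratios from -0.35 to 0.55: 63.5 and 55.7 CPM in cluster 6, 40.8 and 32.0 in cluster 4, 39.6 and 35.1 in cluster 8, 42.15 and 42.03 in cluster 7, and 15.9 and 12.9 in cluster 14. Only cluster 9 was higher, at 19.7 and 28.8 CPM. The interval of the log2 ratio excluded 0 in cluster 4 (-0.35 [-0.46, -0.24]), cluster 6 (-0.19 [-0.34, -0.03]) and cluster 8 (-0.17 [-0.31, -0.04]). In every other cluster, cluster 9 among them, the interval included 0. Untreated levels weighted by the MSA-2 cluster mix gave 36.5 CPM, above the 33.1 CPM of both libraries. The thinned share with a UMI was 4.81% and 5.65%, and the unthinned share 42.0% and 43.1%. Thinned to 3000 UMIs, the share of MSA-2 minus that of untreated cells was -0.34 percentage points. Without integration of the libraries, the log2 ratio in the cells then named epithelial-like was 0.29 [0.22, 0.37].

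Most other classes had less Ulbp1 than the tumor cells. It had 294 UMIs (11.9 CPM) and 91 UMIs (10.1 CPM) in myeloid-like cells, a log2 ratio of -0.24 [-0.60, 0.10], 12.49 and 11.998 CPM in macrophage-like cells, 8.59 and 7.73 CPM in fibroblast-like cells, and 20.8 and 18.0 CPM in endothelial-like cells. NK-like cells had 24.4 and 19.8 CPM. In CD8 T-like cells it had 36 UMIs (14.2 CPM) untreated and 11 UMIs (37.0 CPM) after MSA-2, a log2 ratio of 1.38 [0.26, 2.39] and so more than 2-fold higher on few UMIs. The cycling NK/T-like sub-cluster without a sub-class name stood above the tumor cells as a whole, at 70.8 and 70.9 CPM. By their central values, so did the cycling NK-like sub-cluster (52.4 and 34.1 CPM) and CD8 T-like cells after MSA-2.

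**Figure D4:**
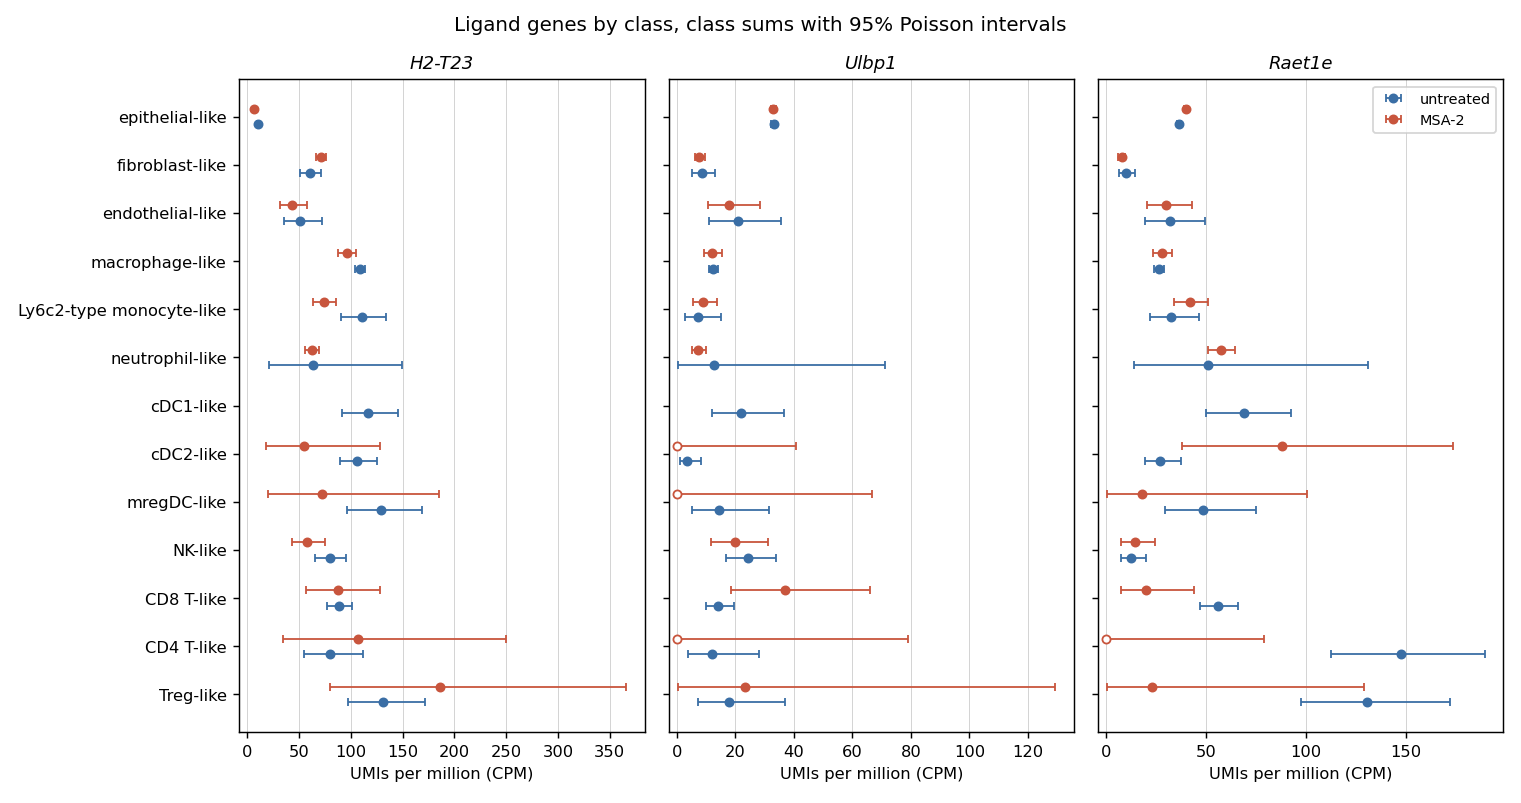
H2-T23, Ulbp1 and Raet1e levels (CPM of summed UMIs, x axis) by cell class in the untreated and MSA-2 libraries, with exact Poisson 95% intervals; open circles mark classes with 0 UMIs, and classes under 10 cells in a library are not drawn. H2-T23 is lowest in epithelial-like cells, at 10.2 and 6.82 CPM, where Ulbp1 stands at 33.1 CPM in both libraries.

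Raet1e, an NKG2D ligand gene of the RAE-1 family, was slightly higher in tumor cells after MSA-2 and lower in T cells. In epithelial-like cells it had 5418 UMIs (36.6 CPM) untreated and 6545 UMIs (40.1 CPM) after MSA-2, a log2 ratio of 0.13 [0.08, 0.19]. The clusters were split, with 4 lower and 5 higher and log2 ratios from -0.57 to 0.66. The higher ones included the clusters filled mainly by the MSA-2 library, cluster 7 (36.45 and 50.02 CPM) and cluster 9 (41.8 and 66.1 CPM), and cluster 1 (42.3 and 44.8 CPM). Cluster 14 (42.3 and 28.5 CPM), cluster 6 (62.1 and 58.5 CPM) and cluster 4 (29.4 and 26.8 CPM) were lower. Untreated levels weighted by the MSA-2 cluster mix gave 36.4 CPM. Without integration of the libraries, the log2 ratio in the cells then named epithelial-like was -0.04, and in the epithelial-like cells without myeloid-like or NK/T-like UMIs it was -0.31. The thinned share was 5.82% and 6.29%, the unthinned share 49.3% and 50.6%.

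Myeloid-like cells had 705 Raet1e UMIs (28.6 CPM) untreated and 284 (31.4 CPM) after MSA-2, a log2 ratio of 0.14 [-0.07, 0.34]. Macrophage-like cells had 26.5 and 28.1 CPM and Ly6c2-type monocyte-like cells 32.8 and 42.0 CPM. Neutrophil-like cells carried more, with 293 UMIs (57.7 CPM) after MSA-2. Among dendritic cells, cDC2-like cells had 38 UMIs (27.3 CPM) and 8 UMIs (88.1 CPM), a log2 ratio of 1.69 [0.38, 2.81], cDC1-like cells 69.0 CPM untreated, and mregDC-like cells 48.6 CPM untreated and 1 UMI after MSA-2. No ligand gene was 2-fold different in epithelial-like or in myeloid-like cells taken whole, among the 3 ligand genes with at least 20 UMIs. Of all genes, 6.2% were 2-fold lower and 11.1% higher in epithelial-like cells, and 8.78% and 9.45% in myeloid-like cells.

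In T cells the Raet1e row was high in the untreated library. It had 61 UMIs (147 CPM) in CD4 T-like and 51 UMIs (131 CPM) in Treg-like cells, against 0 and 1 UMIs after MSA-2. A count of 0 among 46643 UMIs in CD4 T-like cells allows up to 64.3 CPM (3 counts), which is below the untreated level. In CD8 T-like cells it went from 142 UMIs (56.0 CPM) to 6 (20.2 CPM), a log2 ratio of -1.47 [-2.94, -0.32] and more than 2-fold lower, and in all NK/T-like cells from 351 UMIs (59.0 CPM) to 30 (18.3 CPM), a log2 ratio of -1.69 [-2.28, -1.15]. NK-like cells had 12.5 and 14.3 CPM and did not show the T-cell level. The myeloid-like list was also lower after MSA-2 in CD4 T-like (730 and 129 CPM), Treg-like (741 and 255 CPM) and CD8 T-like cells (665 and 131 CPM). In the same order, the monocyte-marker list was higher (65.2 and 343, 110 and 580, and 39.4 and 386 CPM). The part of these lists in the Raet1e values was not tested.

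The antisense gene Gm26740, named because it lies inside Raet1e, was high in the same CD4 T-like and Treg-like cells and in 1 CD8 T-like sub-cluster. It had 171 UMIs (413 CPM) untreated and 14 (300 CPM) after MSA-2 in CD4 T-like cells, 100 (256 CPM) and 3 (69.6 CPM) in Treg-like cells, and 200 (78.9 CPM) and 9 (30.2 CPM) in CD8 T-like cells. Of the 200, the sub-cluster with Gzmk held 170 (291 CPM, with Raet1e at 125 CPM), whereas the largest held 19 (10.8 CPM, with Raet1e at 38.2 CPM). It was near 0 in epithelial-like cells (1.30 and 1.45 CPM), where Raet1e was at 36.6 CPM, and stood at 52.4 and 41.9 CPM in myeloid-like cells. Over 25 points (the classes and sub-classes with at least 20 cells in a library, on the scale of log2 of CPM plus 10) the Pearson correlation of the Raet1e and Gm26740 levels was 0.50, given as a description only since points of 1 library share its depth and free RNA. Whether some of the Raet1e UMIs in T cells belong to another transcript of the locus was not tested.

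H60b, the fourth ligand gene, had 6 UMIs in the untreated library, 3 in macrophage-like, 2 in NK/T-like and 1 in endothelial-like cells, and 4 after MSA-2, all in neutrophil-like cells. It had no UMI in epithelial-like cells: 0 of 6576 untreated cells allows a share of up to 0.0456% of cells with a UMI, and 0 of 7028 MSA-2 cells up to 0.0427%. No difference in H60b was detectable at this depth. H60b shares exon bases with Raet1e, so these bounds hold for UMIs assigned to H60b. Of the 9 NKG2D ligand genes listed, 5 are among the features. Raet1d, which lies inside Raet1e, had 17 and 12 UMIs in epithelial-like and 48 and 20 in myeloid-like cells. It had 0 in NK/T-like cells of either library. H60c had 0 and 1 UMIs in epithelial-like cells and 0 in myeloid-like cells of both libraries.

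**Figure D5:**
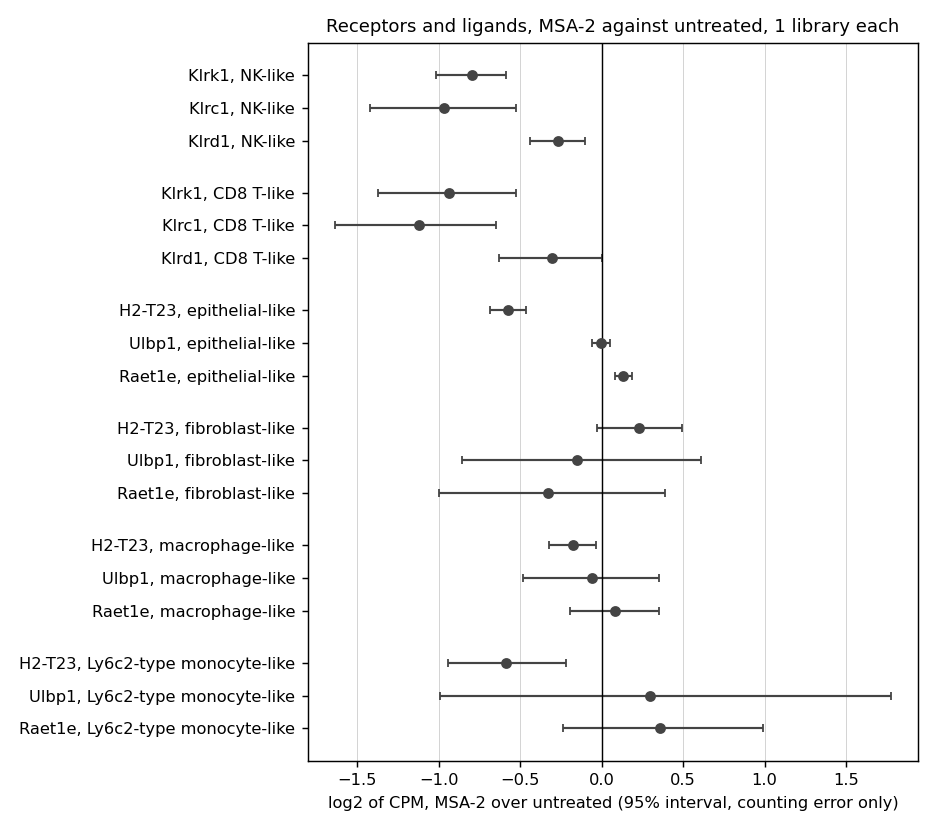
Log2 ratio of MSA-2 over untreated (x axis) for the receptor genes in NK-like and CD8 T-like cells and the ligand genes in epithelial-like, fibroblast-like, macrophage-like and Ly6c2-type monocyte-like cells, with exact conditional binomial 95% intervals that cover counting error only. Klrk1 and Klrc1 lie between -1.12 and -0.80 in both lymphocyte classes, and Ulbp1 in epithelial-like cells lies at 0.

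Among the other receptor and adapter genes of the family, Klri2 and Klrc2 differed most. In NK-like cells, 8 of the 10 listed genes had enough UMIs, none was 2-fold different, and all 8 were below 0, as were 58.0% of all genes. The list's median log2 ratio was -0.53 with Klrk1, Klrc1 and Klrd1 in it and -0.19 over the other 5, beside -0.11 over all genes. The other 5 were the adapters Tyrobp (1113 and 1042 CPM) and Hcst (152 and 133 CPM), Klre1, whose product pairs with those of Klri1 and Klri2 (434 and 418.5 CPM), Klri2 (151 and 82.6 CPM) and Klrc2, which encodes the activating NKG2C (38.3 and 22.02 CPM). In CD8 T-like cells, 8 were measured, all below 0 where 59.1% of all genes were, and 3 were 2-fold lower, as were 14.7% of all genes: Klrc1, Klrc2 (56.0 and 26.9 CPM) and Klri2 (84.0 and 20.2 CPM). The median was -0.73 with the 3 members and -0.52 over the other 5, beside -0.15 over all genes.

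Downstream of NKG2A, 2 of the 4 listed genes were 2-fold lower in NK-like cells, where 7.51% of all genes were. They were the phosphatase genes Ptpn6 (SHP-1; 94.1 and 28.6 CPM, log2 ratio -1.72) and Inpp5d (SHIP-1; 190 and 79.3 CPM, -1.26), and the list median was -1.01. In CD8 T-like cells the same pair was 2-fold lower (-1.15 and -1.26), against 14.7% of all genes, while Ptpn11 (SHP-2) was above 0 (0.21) and the list median was -0.78. The monocyte-marker list was higher in the same NK-like (16.7 and 1653 CPM) and CD8 T-like cells (39.4 and 386 CPM), and its part was not tested. The kinase and linker genes downstream of NKG2D had a median of -0.09 over 9 genes in NK-like cells, beside -0.11 over all genes. None was 2-fold different, and 7 were below 0, as were 58.0% of all genes. In CD8 T-like cells the median was -0.27 over 8 genes, beside -0.15, and 7 were below 0, as were 59.1% of all genes. There 2 were 2-fold lower, against 14.7% of all genes.

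In tumor cells, 9 of the 12 genes for peptide loading and class I presentation were below 0, where 44.9% of all genes were. None was 2-fold different, and the median log2 ratio was -0.20 beside 0.06 over all genes. Without the member H2-T23, 8 of 11 were below 0, with a median of -0.18. B2m, the light chain that Qa-1 shares with other class I proteins, had 1579 and 1352 CPM (-0.22). H2-D1, a source of the leader peptides that Qa-1 presents, had 1191 and 871 CPM (-0.45), and H2-K1 had 2205 and 1622 CPM (-0.44). Nlrc5, the transactivator of class I genes, went the other way, with 34.1 and 52.1 CPM (0.61). Outside the 12, the nonclassical gene H2-T22 had 277 and 169 CPM (-0.71). Of the 8 other nonclassical genes measured, H2-T22 among them, 5 were below 0 and 3 above, with a median of -0.10. In the same cells the myeloid-like list (464 and 121 CPM) and the NK/T-like list (22.8 and 5.996 CPM) were also lower. The monocyte-marker list was higher (7.42 and 499.8 CPM), and the part of these in the class I values was not tested. In myeloid-like cells the same 12 genes had 7 below 0, where 62.2% of all genes were, and a median of -0.16 beside -0.19, and Nlrc5 was 2-fold higher (49.4 and 104 CPM, 1.08), 1 of the 12, as was H2-T24 (1.08), 1 of 8 other nonclassical genes measured, where 9.45% of all genes were. Without H2-T23, 6 of the 11 presentation genes were below 0 in these cells, with a median of -0.03. H2-T22 had 161 and 232 CPM (0.52). There the monocyte-marker list was 195 and 2124 CPM, and its part was not tested.

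Genes that shed or control NKG2D ligands had a median log2 ratio of 0.17 in epithelial-like cells, 7 of 10 above 0 as were 55.1% of all genes, and none 2-fold, among them E2f3 (31.8 and 51.8 CPM) and the sheddase gene Adam17 (0.47). Atm, a kinase of the DNA damage response, was 2-fold higher in NK-like (49.5 and 184 CPM, 1.89) and CD8 T-like cells (2.42), in each the 1 of 9 listed genes that was, where 5.93% and 6.51% of all genes were. Of the 8 measured genes of cytokines that act on these receptors, 5 were below 0 in epithelial-like cells, where 44.9% of all genes were, with a median of -0.50 beside 0.06. There, Il2rb (-1.68) and Il12b (-2.98) were 2-fold lower and Il15 2-fold higher, against 6.2% and 11.1% of all genes. The NK/T-like (-1.93) and myeloid-like lists (-1.94) were lower in the same cells, and their part was not tested. Il15, which raises NKG2D on lymphocytes, was higher in epithelial-like cells (26.4 and 78.4 CPM, 1.57) and in myeloid-like cells (25.9 and 180 CPM, 2.80), as was its presenting receptor Il15ra in myeloid-like cells (11.3 and 90.0 CPM, 2.99). Il18 was at 33.5 and 101 CPM in myeloid-like cells (1.59), whereas Il12b was lower (74.5 and 9.08 CPM, -3.04). Il12b was among the leading genes of mregDC-like and cDC1-like cells, which went from 76 to 14 and from 62 to 2 cells. The part of these cells in the Il12b value was not tested. Tgfb1, which lowers NKG2D, was 2-fold lower in NK-like (422 and 72.7 CPM, -2.54), CD8 T-like (-2.23) and myeloid-like cells (137 and 68.3 CPM, -1.003), where 7.51%, 14.7% and 8.78% of all genes were. Of the cytokine list, 1 of 5 genes was 2-fold lower and 2 higher in NK-like and in CD8 T-like cells. In myeloid-like cells 3 of 7 were lower and 3 higher. Of all genes, 5.93%, 6.51% and 9.45% were 2-fold higher in NK-like, CD8 T-like and myeloid-like cells. The monocyte-marker list was also higher in myeloid-like cells (195 and 2124 CPM), and its part was not tested.

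The genes whose levels were most alike over the 25 points, among 11496 genes other than the members, were for Klrk1 Fgf13 (correlation 0.918), Runx3 (0.917) and Clec2i (0.873), and for Klrd1 Fgf13 (0.908), Cd7 (0.896) and Padi2 (0.880). Klrc1 was closest to Fasl (0.976), Cd96 (0.972) and Ifng (0.943). Among the ligands, Ulbp1 was closest to Nt5c3b (0.897), Tsfm (0.854) and Tsr1 (0.847), H2-T23 to Mapre2 (0.822), Eif2s3y (0.810) and Arl6ip1 (0.795), and Raet1e less close to any gene, with Khnyn (0.752), Zfp869 (0.726) and Bcl2l1 (0.722). The correlations of the receptor genes were thus higher than those of H2-T23 and Raet1e, over points that share libraries.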

How the data were processed

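Single-cell 3′ libraries (10x v3.1) were made from pooled tumors, 1 library per condition. The files the authors deposited hold UMI counts for each gene and cell, not normalized, made with Cell Ranger (7.0.1 in the file header, 7.0.0 in the submitters' notes, which also name Seurat 4.3.0 and mm10). The paper's methods name other versions of Cell Ranger and Seurat. Whether intronic reads were counted is not given in the sources used here. The filter kept cells with 500 or more genes and no more than 20% of UMIs from mitochondrial genes (14039 of 14386 untreated and 13963 of 14617 MSA-2 barcodes), and 705 and 570 doublets found by Scrublet (Scanpy 1.11.5) were removed. Cells were integrated and clustered in Seurat 5.3.0 (R 4.3.3) with 2000 variable genes, 30 dimensions and resolution 1, and named from marker lists. The score behind the names was changed once clusters had been looked at. The members and lists were chosen with earlier results of these data known.

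For each class and library, UMIs were added up and given as CPM with exact Poisson intervals, and the ratio of the libraries with an exact conditional binomial interval (SciPy 1.17.1, Python 3.11.15). With 1 library per condition no test was made. A gene was counted as 2-fold different if it had at least 20 UMIs in both libraries together. Shares of cells with a UMI were compared after thinning each cell to 1500 UMIs. The counting code was checked on simulated data. Members were named by symbol, pathway genes from the lists, and the 3 most alike genes by correlation over sums of at least 20 cells among genes reaching 20 CPM. Alternatives were other cell filters, doublets kept, other resolutions, no integration, interferon-stimulated genes among the variable genes, TMM factors (edgeR 4.0.16), per-cell means, gates on UMIs, and cells without UMIs of other classes' markers, the last added after seeing the data.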

Additional observations from a re-analysis of the deposited data

Results flagged for a closer look

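The Klrk1 ratio in CD4 T-like cells went the opposite way from that in other classes. Its log2 ratio was 1.56 and higher by 3.55 than in epithelial-like cells, by 2.36 than in macrophage-like cells, by 2.43 than in cDC2-like cells, by 2.36 than in NK-like cells and by 2.50 than in CD8 T-like cells. The MSA-2 value rests on 11 UMIs in 25 cells, and the differences were not tested.

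The Raet1e ratio was also of opposite sign between classes. The log2 ratio was higher by 1.61 in epithelial-like than in CD8 T-like cells, and higher by 3.17 in cDC2-like than in CD8 T-like cells, on 6 UMIs in CD8 T-like and 8 UMIs in cDC2-like cells after MSA-2. These differences were not tested either.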

How the results depend on the processing

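No paired analysis was possible because each condition has 1 library. Over the 12 receptor and ligand ratios, 95 of the alternative values stayed within the counting interval of the reported one, and the others are given here. In CD8 T-like cells, Klrk1 ran from -1.04 to -0.68 and Klrd1 from -0.54 to -0.16 over 11 alternatives, and Klrc1 was -0.46 in cells without a monocyte-marker UMI. In NK-like cells those cells gave 0.062 for Klrk1, 0.053 for Klrc1 and 0.47 for Klrd1, and Klrd1 was -0.00029 as a mean of per-cell CPM and -0.087 under gates on UMIs. Resolution 0.5 and the stricter cell filter gave no NK-like cluster and so no value. In epithelial-like cells, Ulbp1 was -0.068 with doublets kept, 0.067 at resolution 2, 0.29 without integration, -0.070 with TMM factors, 0.058 as a per-cell mean and -0.17 in cells without myeloid-like or NK/T-like UMIs. Raet1e was 0.21 at resolution 2, -0.037 without integration, 0.066 with TMM, 0.23 as a per-cell mean and -0.31 in those cells. H2-T23 was -0.69 at resolution 2 and without integration, and -2.29 in those cells. In myeloid-like cells, Raet1e was -0.24 at resolution 0.5 and H2-T23 was -0.46 as a per-cell mean. Klrk1 in CD4 T-like cells was -0.70 under the stricter filter, -1.32 with doublets kept, -1.73 at resolution 0.5 and -0.13 at resolution 2. The cause of these shifts was not tested.

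Adding 10 CPM before the ratio cut the count of 2-fold lower genes from 622 to 209 in NK-like, 1293 to 425 in CD8 T-like, 1128 to 76 in epithelial-like and 1216 to 149 in myeloid-like cells, and that of higher genes from 491 to 236, 574 to 256, 2024 to 158 and 1309 to 412. A minimum of 50 UMIs left 312 lower and 229 higher genes in NK-like and 641 and 279 in CD8 T-like cells.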
